A study of Mus musculus with 32 samples.

Results

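The experiment examined here added MYC to brain tumour cells that already overexpressed HRAS. It covers 7 of the 32 arrays in the series: 2 arrays of cultures labelled as HRAS with additional MYC in a consecutive design (called HRAS then MYC) and 5 arrays of cultures with HRAS alone (HRAS). The arrays were chosen by their titles, not by any measured value. All 7 cultures were mouse neurospheres of strain B6;129-Trp53tm1Brd, so every group, the HRAS cultures included, lacked p53. The HRAS tumours, labelled glioma, grew in the brain from transplanted neurosphere cells, taken from the wall of the lateral ventricle after birth and deficient in p53, that had received HRAS. For HRAS then MYC, tumour sphere cells of a glioma were made to overexpress MYC and gave a secondary brain tumour. Flow cytometry then picked the cells of each tumour that carried a transgene, and these were cultured as neurospheres before total RNA was taken. A further group, 7 arrays of HRAS+MYC cultures, served for comparison: there both genes were overexpressed in the cells first transplanted, and the tumours were labelled AT/RT-like, after the atypical teratoid/rhabdoid tumour. Levels of some genes are also given for 2 arrays of MYC then HRAS cultures. There the genes were added in the opposite order, HRAS to tumour sphere cells of a PNET. Single genes are also given for 2 arrays of HRAS with Bmi1 and 6 arrays of MYC alone. The fit to all 32 arrays further held 5 arrays of MYC with Ezh2 and 3 of MYC with Bmi1. The labels do not say which HRAS culture was the parent of the HRAS then MYC cells, whether replicates were separate tumours or animals, what drove the transgenes, or the age of the animals. The p-values therefore measure the spread between arrays, which may be technical, and the step from HRAS to HRAS then MYC also includes a further passage through the brain, which cannot be told apart from MYC itself.

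MYC is a transcription factor that pairs with MAX and binds the E-box, a short DNA motif common near gene starts. It is known for raising genes of ribosome assembly, nucleotide synthesis and cell division, and MXD and MNT proteins compete with it for MAX. HRAS is a small GTPase that signals through the MAP kinase cascade, whose output includes growth factors, feedback inhibitors and AP-1 transcription factors.

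Adding MYC went with a large change in both directions, in which the falls were the larger. Values are log2 expression levels per gene, and a gene passed when its limma adjusted p was under 0.05. Of 19938 genes, 2495 (12.5%) passed in HRAS then MYC against HRAS, 1256 higher (6.3%) and 1239 lower (6.21%). Among genes that passed, 32 were higher and 244 were lower by more than 2 log2 units, and the median difference was 0.79 among the higher and -1.2 among the lower genes. An unadjusted p under 0.05 was found for 4853 genes. The arrays of the 2 groups did not overlap for 5697 genes (28.6%), of which 2357 passed (11.8% of all genes). The median difference over all genes was 0.04. Centring each array on its median gave 2467 higher and 904 lower genes (73.2% of calls higher, against 50.3% without centring) and moved the median of all genes to 0.19, so a list median within 0.15 of zero has no settled sign. Each of the HRAS then MYC arrays carried much of these counts: 527 higher and 583 lower genes passed without replicate 1, and 228 and 316 without replicate 2. Fitted to these 7 arrays alone, without the spread of the other groups, 342 higher and 641 lower genes passed. The 2 HRAS then MYC arrays were close to each other, with an SD of 0.3 for their gene by gene log2 difference, against 0.357 to 0.663 between pairs of HRAS arrays and 0.615 to 0.8 between the groups. The cells carried the neural progenitor mark Sox2 at 10.74 and 10.98 in HRAS then MYC and 10.76 to 11.92 in HRAS, and the intermediate filament Vim above 13 on all 7 arrays. The astrocyte filament Gfap was near the floor of the arrays, at 5.47 and 4.97 in HRAS then MYC and 4.92 to 5.21 in HRAS, as was the oligodendrocyte factor Olig2 except in HRAS replicate 3 (8.94) and replicate 1 (6.51).

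**Figure D1:**
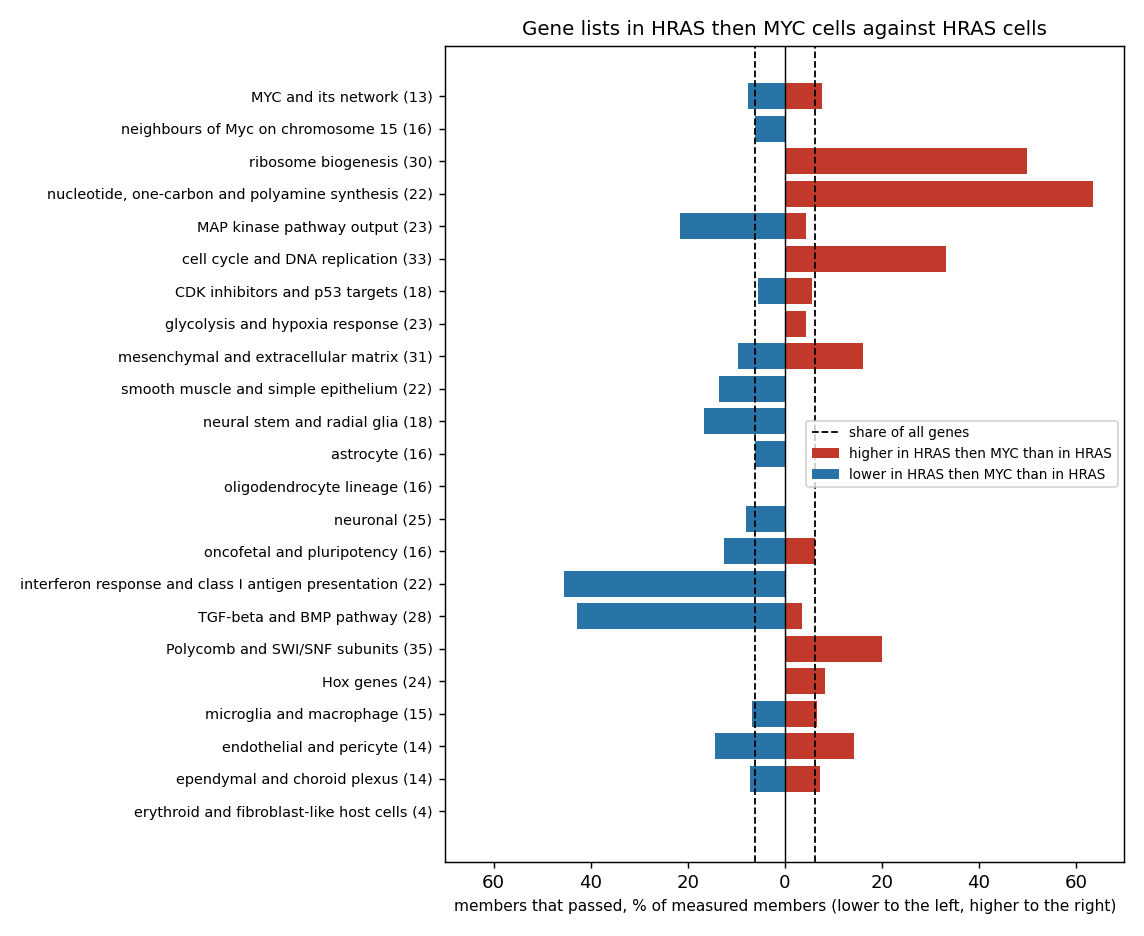
Share of each gene list's measured members (number in brackets) that passed in HRAS then MYC against HRAS, with higher members to the right and lower members to the left, in percent. Dashed lines mark the share of all genes, 6.3% higher and 6.21% lower; the bars for ribosome biogenesis (50%) and nucleotide synthesis (63.6%) point right and those for interferon (45.5%) and the TGF-beta and BMP pathway (42.9%) point left.

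Mouse Myc itself fell in the cells to which MYC had been added. Its level was 8.25 and 7.49 in HRAS then MYC, against 11.88, 12.85, 10.92, 10.44 and 10.71 in HRAS. Every HRAS array lay above both HRAS then MYC arrays. The difference was -3.49 ± 0.467 (SE) log2 units, a level 0.0892 times that in HRAS (adjusted p = 1.49e-05). In HRAS+MYC cells Myc lay between 7.24 and 7.96, and the difference of HRAS then MYC from them was 0.21 (adjusted p = 0.87). The labels give neither the species nor the part of the MYC that was added, so this mouse probe set cannot check the transgene. Hras was not analysed here, since no probe set carried its symbol alone.

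Pvt1, the long noncoding RNA gene next to Myc on chromosome 15, was also lower. It had 7.39 and 7.27 in HRAS then MYC, against 10.62, 11.84, 8.07, 7.88 and 8.27 in HRAS. All HRAS arrays were above both HRAS then MYC arrays, with replicates 1 and 2 standing far above the other HRAS arrays. Pvt1 fell by 2.0 (a difference of -2.0 ± 0.612 log2 units, adjusted p = 0.0294), and did not pass without HRAS replicate 1, without either HRAS then MYC array, with the 7 arrays fitted alone (adjusted p = 0.332), or with probe sets of a gene averaged (-0.92, adjusted p = 0.0567). Pvt1 was the only 1 of 16 measured neighbours of Myc that passed (6.25%, near the 6.21% of all genes that were lower). Without HRAS replicates 1 and 2 the difference was -0.74 log2 units for Pvt1 (adjusted p = 0.0468) and -2.82 for Myc.

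Among the other members of the MYC network 1 rose and 11 did not pass. Over all 13 members the shares higher and lower were 7.69% each, near the 6.3% and 6.21% of all genes. Mxd3, a MAX partner found in dividing cells, had 7.74 and 7.65 in HRAS then MYC against 6.58, 6.40, 6.81, 6.25 and 6.51 in HRAS. The groups did not overlap, and the rise was 1.19 ± 0.222 log2 units (2.28-fold, adjusted p = 0.000648). Max had 9.83 and 9.60 in HRAS then MYC and 8.89 to 10.08 in HRAS, so the groups overlapped (difference 0.24, adjusted p = 0.599). The paralogues Mycn (6.32 and 5.87, against 5.77 to 7.22 in HRAS) and Mycl (6.30 and 6.49, against 6.10 to 6.88) overlapped as well, and centring moved their small negative differences to 0.11 for Mycn and 0.00 for Mycl. Of the MAX-binding repressors, the differences were -0.38 for Mxd1, 0.59 for Mxd4, -0.14 for Mxi1 (0.01 after centring), -0.15 for Mnt and -0.41 for Mga, with adjusted p-values of 0.192 or more. The related sensors of sugar phosphates, Mlxip and Mlxipl, and their partner Mlx had differences of 0.34, 0.26 and 0.26, none of which passed. Under alternatives Mlxipl did pass after centring and without HRAS replicates 1 and 2, and Mga did with array weights.

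**Figure D2:**
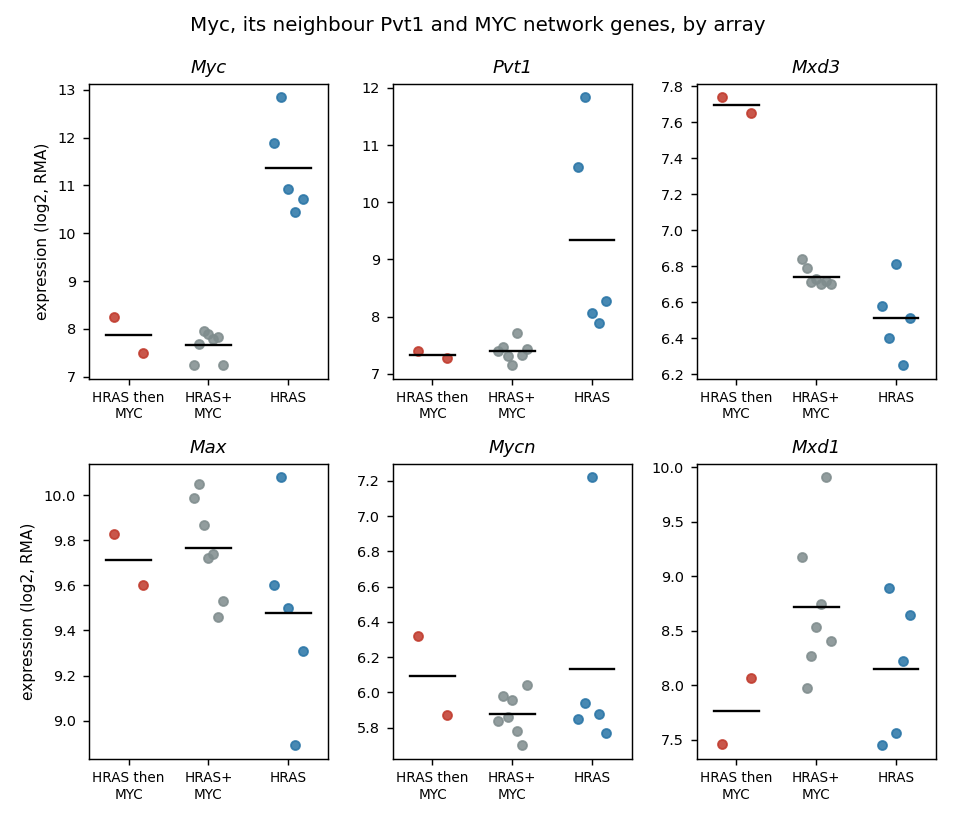
Log2 expression (RMA) of Myc, Pvt1 and members of the MYC network by array in HRAS then MYC (2 arrays), HRAS+MYC (7) and HRAS (5), with the group mean as a line. Both HRAS then MYC points lie below all HRAS points for Myc and Pvt1 and above them for Mxd3, and the groups overlap for Max, Mycn and Mxd1; axes do not start at 0.

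Genes of ribosome assembly moved upward together. Of 30 measured members 15 rose and none fell, against 6.3% and 6.21% of all genes, and the difference was positive in all 30, with a median of 0.66. Leaving out HRAS then MYC replicate 1 left 7 members that passed, leaving out replicate 2 left 5, and fitting the 7 arrays alone left 4. The mean level of the 30 genes was 10.38 and 10.33 in HRAS then MYC, against 9.13 to 9.98 in HRAS and 10.34 to 10.65 in HRAS+MYC. Thus the HRAS then MYC arrays lay above every HRAS array, and within or just below the HRAS+MYC range. Since these are bulk cultures, more cells of a type and more RNA per cell cannot be told apart, here and below.

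Gar1, a protein of the particles that modify ribosomal RNA, had the largest rise of the list. It had 10.77 and 10.66 in HRAS then MYC, against 9.43, 9.12, 9.71, 8.95 and 9.39 in HRAS, and the groups did not overlap (1.4 ± 0.188 log2 units, 2.63-fold, adjusted p = 1.53e-05). Wdr12, a subunit of the complex that matures the large ribosomal subunit, had 10.39 and 10.10 against 8.22 to 9.50 in HRAS (1.16 ± 0.236, adjusted p = 0.00137). Fbl, the methyltransferase fibrillarin, had 10.31 and 10.29 against 8.75 to 9.67 in HRAS, and Rrs1, a large-subunit assembly factor, 9.74 and 9.69 against 8.03 to 8.97, each with a difference of 1.07. The nucleolar proteins Ncl and Npm1 rose by 0.72 and 0.65. Members of RNA polymerase I and of its cofactors were less uniform: Polr1c rose by 0.81, while Polr1b (0.62, adjusted p = 0.204) and Mybbp1a (0.44, adjusted p = 0.166) overlapped with HRAS. Wdr12 did not pass without HRAS then MYC replicate 1, nor Ncl, Npm1 and Polr1c without replicate 2, and Wdr12, Fbl, Ncl and Npm1 did not with the 7 arrays alone.

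The E-box was searched as CACGTG, which reads the same on both strands, in RefSeq promoter windows (250 bases before to 50 after a gene's start, GRCm38.p6). It was present for 9.52% of 15563 measured genes with a window and 7.15% of all 32851 windows, against 6 of 25 ribosome genes with a window (24.0%) and 2 of the 12 among them that rose. In the synthesis list described next, 3 of 19 genes with a window held it, and 1 of the 12 that rose. Every risen gene of these lists with a match is printed here as 110 bases with the motif in capitals, to place it near the gene start. Atic lies at chr1:71557076-71557185, Wdr43 at chr17:71616135-71616244 and Pes1 at chr11:3963895-3964004, all on the plus strand.
Atic: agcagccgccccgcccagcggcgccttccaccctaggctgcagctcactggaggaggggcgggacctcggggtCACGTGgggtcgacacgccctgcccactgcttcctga
Wdr43: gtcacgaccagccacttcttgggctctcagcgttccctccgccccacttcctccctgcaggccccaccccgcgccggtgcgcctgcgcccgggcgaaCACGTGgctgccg
Pes1: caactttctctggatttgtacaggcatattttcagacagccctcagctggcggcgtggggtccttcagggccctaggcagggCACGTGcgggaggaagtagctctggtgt
Wdr43, a factor of early ribosomal RNA processing, had 11.14 and 11 in HRAS then MYC against 9.91 to 10.90 in HRAS (0.67, adjusted p = 0.0427). Pes1, a partner of Wdr12 in large-subunit assembly, had 10.60 and 10.43 against 9.50 to 10.21 in HRAS (0.63, adjusted p = 0.0205). Atic, Wdr43 and Pes1 each lost the call without either HRAS then MYC array, Wdr43 and Pes1 also without HRAS replicate 4, and Wdr43 without HRAS replicate 5; none of the 3 passed with the 7 arrays alone. The largest risers of the list, Gar1 and Wdr12, had no match in their window.

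Enzymes that make nucleotides, one-carbon units and polyamines also rose. Of 22 measured members 14 rose (63.6%, against 6.3% of all genes) and none fell, and the median difference was 0.88. The count was 8 without HRAS replicate 4, 4 without HRAS then MYC replicate 1, 3 without replicate 2 and 3 with the 7 arrays alone. The mean level of the list was 10.48 on both HRAS then MYC arrays, against 9.08 to 10.02 in HRAS and 10.32 to 10.53 in HRAS+MYC. Srm, spermidine synthase, had 11.63 and 11.60 in HRAS then MYC, against 10.31, 10.99, 9.99, 9.03 and 9.63 in HRAS. All HRAS arrays were lower, and the rise was 1.62 ± 0.299 log2 units (3.08-fold, adjusted p = 0.000568), a call lost with the 7 arrays alone (adjusted p = 0.0787). Odc1, which makes the polyamine precursor putrescine and is a classical MYC target, had 11.62 and 11.61 against 11.59 to 12.05 in HRAS (-0.23, adjusted p = 0.67), the single negative difference of the list.

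The rise covered both branches of nucleotide synthesis. Dhodh, the mitochondrial enzyme of pyrimidine synthesis, had 8.51 and 8.47 in HRAS then MYC against 6.71 to 7.26 in HRAS (1.5, adjusted p = 0.00285), and Cad, which catalyses the first steps of that route, rose by 0.96. In purine synthesis, Ppat rose by 0.73, Atic by 0.70 (11.49 and 11.43 against 10.36 to 11.07 in HRAS) and Impdh1 by 1.37. The serine hydroxymethyltransferases, which feed one-carbon units, rose in both compartments: Shmt2 of mitochondria had 11.49 and 11.99 against 9.66 to 10.63 in HRAS (1.43, adjusted p = 0.000322), and cytosolic Shmt1 had 9.93 and 9.64 against 7.59 to 9.13 (1.42, adjusted p = 0.000655). Phgdh and Psat1, which make the serine they use and are not on the list, rose by 1.02 and 0.65. Tyms, thymidylate synthase, had 9.18 and 8.71 against 6.65 to 8.89 in HRAS, overlapping with replicate 3 (1.22, adjusted p = 0.177). Cad, Ppat, Atic, Impdh1 and Psat1 did not pass without either HRAS then MYC array, nor Dhodh without replicate 2. Ppat also lost its call without HRAS replicate 4 or 5, and Psat1 without HRAS replicate 1. With the 7 arrays alone Cad, Ppat, Atic, Shmt1 and Psat1 did not pass.

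**Figure D3:**
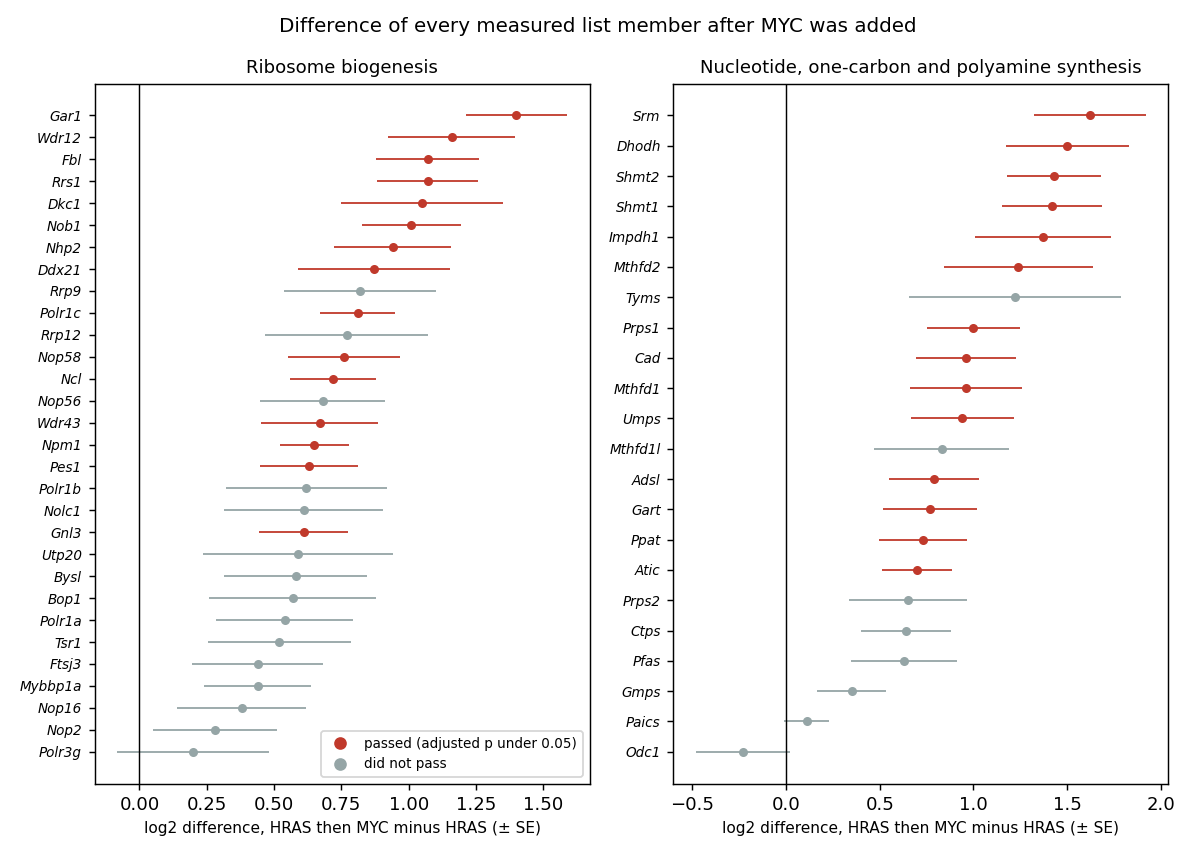
Log2 difference (HRAS then MYC minus HRAS) with its standard error for every measured member of the ribosome biogenesis list (30 genes, left) and of the nucleotide, one-carbon and polyamine synthesis list (22 genes, right), with those that passed in red. All 30 differences on the left and 21 of 22 on the right are above 0; Odc1 is the exception.

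In cell cycle and DNA replication genes 11 of 33 rose (33.3%, against 6.3% of all genes) and none fell, with a median difference of 0.69. Rrm2, the small subunit of ribonucleotide reductase, had 11.44 and 11.09 in HRAS then MYC, against 9.35, 9.24, 10.15, 8.14 and 9.57 in HRAS. The groups did not overlap, and the rise was 1.97 ± 0.329 log2 units (3.92-fold, adjusted p = 0.000205). The replication licensing genes Mcm5 (9.97 and 9.90, against 8.32 to 9.54 in HRAS) and Cdc6 (9.24 and 8.98, against 6.91 to 8.64) rose by 1.26 and 1.23, and the mitotic cyclin Ccnb2 by 1.02. Mcm5, Cdc6 and Ccnb2 did not pass without either HRAS then MYC array, nor Cdc6 and Ccnb2 without HRAS replicate 4 or Ccnb2 without HRAS replicate 3. The proliferation marker Mki67 had 9.84 and 9.73 against 8.82 to 9.93 in HRAS and did not pass (0.63, adjusted p = 0.289); HRAS replicate 3 was as high. Ccnd1, the G1 cyclin downstream of RAS, had 11.95 and 11.56 against 11.87 to 12.77 (-0.80, adjusted p = 0.0975). The count fell to 7 without HRAS replicate 4, to 2 without either HRAS then MYC array, and to 4 with the 7 arrays alone, where Mcm5 and Cdc6 did not pass. Among CDK inhibitors and p53 targets, in cells without p53, 1 of 18 rose and 1 fell (5.56% each, near the 6.3% and 6.21% of all genes). Sesn1, a stress-induced regulator of growth signalling, rose by 0.91, and Pmaip1, the apoptosis gene Noxa, had a difference of -1.76. Each lost its call without either HRAS then MYC array or HRAS replicate 4. So did Sesn1 without HRAS replicate 1, 2 or 5, and Pmaip1 with the 7 arrays alone. Of 23 measured genes of glycolysis and the hypoxia response 1 rose (4.35%, below the 6.3% of all genes). It was Pdk1, the kinase that restrains pyruvate entry into mitochondria (1.22). Pdk1 did not pass without HRAS replicate 4 or HRAS then MYC replicate 2, or with the 7 arrays alone.

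Of 23 measured output genes of the MAP kinase pathway 5 fell (21.7%, against 6.21% of all genes) and 1 rose (4.35%, below the 6.3% of all genes). The median was -0.36, and fewer falls passed without either HRAS then MYC array. Hbegf, a ligand of the EGF receptor, had 9.11 and 8.32 in HRAS then MYC, against 11.66, 11.93, 10.87, 11.90 and 10.30 in HRAS. No array overlapped (-2.61 ± 0.396 log2 units, 0.163 times the HRAS level, adjusted p = 6.44e-05). Ereg, a further ligand of that family, had 7.31 and 5.72 against 7.93 to 8.55 in HRAS (-1.75, adjusted p = 0.000565), and the AP-1 subunit Fosl1 had 9.17 and 7.78 against 9.72 to 10.16 (-1.45, adjusted p = 0.000137). For Ereg and Fosl1 HRAS then MYC replicate 2 was much lower than replicate 1, and neither gene passed without replicate 2. Phlda1 and Spred3, which are induced by the pathway and restrain signalling, fell by 1.25 and 0.86, but not without either HRAS then MYC array. The feedback inhibitor Spry1 had 10.14 and 10.36 against 8.57 to 9.98 in HRAS and rose by 0.85 (adjusted p = 0.0448), a call lost without either HRAS then MYC array, without HRAS replicate 1, 2 or 3, or without HRAS+MYC replicate 4, 6 or 7, whose spread enters the fit, or with the 7 arrays alone. The ERK phosphatase Dusp6 had 12.05 and 12.15 against 10.25 to 11.90, a difference of 0.79 that did not pass (adjusted p = 0.458), and Spry4, Etv4, Etv5 and the ligand Tgfa (-0.18) overlapped between the groups.

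The TGF-beta and BMP pathway was among the lists with the largest share of falls. Of 28 measured members 12 fell and 1 rose, against 6.21% and 6.3% of all genes, with a median difference of -0.68. The falls that passed were 5 without HRAS then MYC replicate 2 and 4 with the 7 arrays alone. The mean level of the list was 7.28 and 7.04 in HRAS then MYC, against 8.04 to 8.32 in HRAS and 7.73 to 7.98 in HRAS+MYC, so both arrays lay below those of either other group. Tgfbi, a matrix protein induced by TGF-beta, had 6.87 and 6.25 in HRAS then MYC, against 10.88, 11.14, 10.71, 11.25 and 11.04 in HRAS. The HRAS arrays were close together and far above (-4.44 ± 0.517 log2 units, 0.0461 times the HRAS level, adjusted p = 1.95e-06).

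The falls included ligands, their carriers, receptors and feedback genes. Among ligands, Tgfb1 had 7.70 and 6.37 in HRAS then MYC against 8.06 to 9.90 in HRAS (-2.09, adjusted p = 0.000557), Tgfb2 5.97 and 5.80 against 6.40 to 7.85 (-1.47), and Bmp2 5.01 and 4.79 against 5.95 to 8.90 (-2.99, adjusted p = 0.000641). Ltbp1, which holds latent TGF-beta in the matrix, had 8.56 and 7.12 against 10.71 to 11.84 (-3.59, adjusted p = 8.33e-05), and the secreted BMP antagonist Grem1 had 6.16 and 5.73 against 7.36 to 11.34 (-3.87, adjusted p = 6.51e-05). The groups did not overlap for any of these. The receptors Tgfbr2 and Acvr1 fell by 0.99 and 1.33, and the feedback genes Skil and Smad7 by 1.98 and 1.3. Without HRAS then MYC replicate 2, Tgfb1, Tgfb2, Tgfbr2, Acvr1, Skil and Smad7 did not pass, and without replicate 1 Tgfbr2 and Smad7 did not. Tgfbr2 also lost its call without HRAS replicate 1, 2, 4 or 5, and Smad7 without HRAS replicate 2 or 4. With the 7 arrays alone Tgfb1, Tgfb2, Bmp2 (adjusted p = 0.0784), Grem1 (adjusted p = 0.0597), Skil and Smad7 did not pass, nor Tgfbr2 after centring. The BMP receptor Bmpr1b was the 1 member that rose (7.01 and 6.87 against 4.51 to 6.12 in HRAS, 1.74, adjusted p = 0.0408), and it did not pass without either HRAS then MYC array or without any 1 of HRAS replicates 1, 2, 4 and 5.

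**Figure D4:**
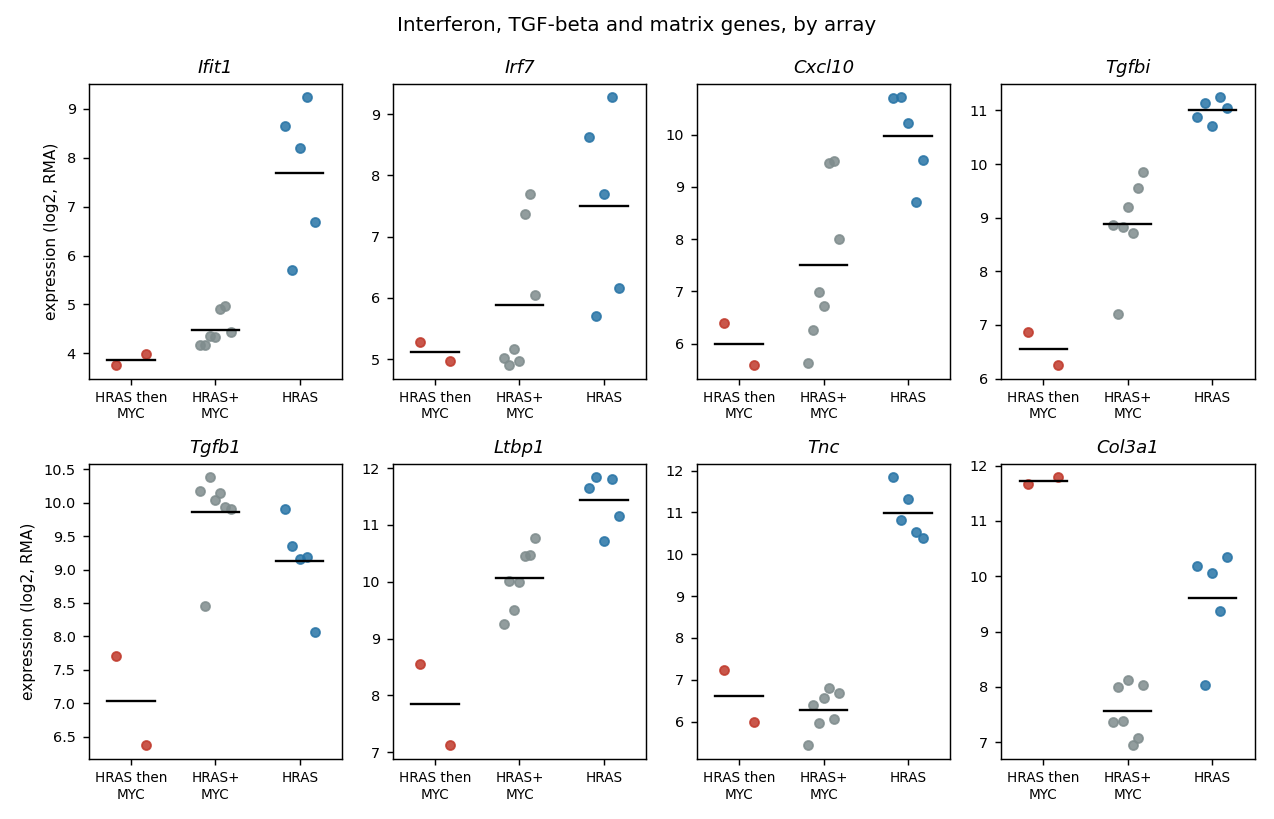
Log2 expression (RMA) of interferon, TGF-beta and matrix genes by array in HRAS then MYC (2 arrays), HRAS+MYC (7) and HRAS (5), with the group mean as a line. Both HRAS then MYC points lie below all HRAS points in every panel except Col3a1, where they lie above; the HRAS points spread most for Ifit1 and Irf7. Axes do not start at 0.

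Genes of the interferon response fell, from levels that differed widely among the HRAS cultures. Of 22 measured members 10 fell (45.5%, against 6.21% of all genes) and none rose, with a median of -0.93. Ifit1, which binds viral RNA, had 3.76 and 3.98 in HRAS then MYC, against 8.65, 5.7, 8.20, 9.24 and 6.69 in HRAS. HRAS replicates 1, 3 and 4 were high and replicates 2 and 5 lower, yet all 5 lay above both HRAS then MYC arrays (-3.82 ± 0.53 log2 units, 0.0708 times the HRAS level, adjusted p = 2.11e-05). Irf7, the factor that amplifies the response, followed the same order, with 5.28 and 4.96 against 8.63, 5.7, 7.70, 9.28 and 6.16 (-2.38, adjusted p = 0.0238). Usp18, which damps interferon receptor signalling, had 4.77 and 4.89 against 5.42 to 9.37 (-2.39, adjusted p = 0.01). Ifit3 had 3.52 and 3.34 against 3.75 to 7.73 (-2.66, adjusted p = 0.00268), with HRAS replicate 2 barely above HRAS then MYC. Irf7, Usp18 and Ifit3 did not pass without HRAS then MYC replicate 2, nor Irf7 and Usp18 without replicate 1, nor Irf7 without HRAS replicate 1 or 4, and none of these 3 with the 7 arrays alone.

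Among the class I antigen presentation genes of the list, 1 of 7 measured fell, a share above the 6.21% of all genes. Tapbp, which loads peptides on class I molecules, fell by 1.37 (adjusted p = 0.0045), whereas B2m (-0.77), Tap1 (-0.76), Tap2 (-0.40), Psmb8 (-0.71), Psmb9 (-0.11) and Nlrc5 (0.33) did not pass. A difference between these and the other members was not tested. Without HRAS then MYC replicate 1 the list had 5 falls that passed, without replicate 2 it had 1, and with the 7 arrays alone it had 1. A filter that kept only genes of higher mean level left 3, since it removed members such as Ifit1, Irf7 and Usp18 before the test. The mean level of the list was 6.25 and 6.15 in HRAS then MYC, against 6.42 to 8.16 in HRAS and 5.85 to 6.74 in HRAS+MYC. The chemokines Cxcl10 (6.39 and 5.59, against 8.72 to 10.72 in HRAS) and Ccl5 (6.40 and 6.05, against 8.22 to 9.85), which interferon and NF-kappaB signals induce, fell by 3.99 and 3.04. Tapbp and Ccl5 did not pass without HRAS then MYC replicate 2, nor Tapbp with the 7 arrays alone.

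The element that interferon-activated factors bind was searched as GAAANNGAAA, on both strands of the same windows. It was present for 3.89% of measured genes with a window and 3.44% of all windows, against 7 of 17 genes of this list (41.2%) and 4 of the 8 that fell. Ifit1 (chr19:34640735-34640844, plus strand), Ifit3 (chr19:34583323-34583432, plus strand) and Rsad2 (chr12:26456513-26456622, minus strand), chosen after their values were seen, are shown as 110 bases with each match in capitals, to show the spacing of the paired copies.
Ifit1: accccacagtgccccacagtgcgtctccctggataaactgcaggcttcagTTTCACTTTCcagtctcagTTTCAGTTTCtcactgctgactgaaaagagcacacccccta
Ifit3: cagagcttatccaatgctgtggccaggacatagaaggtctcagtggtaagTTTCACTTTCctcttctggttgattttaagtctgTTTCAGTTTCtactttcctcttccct
Rsad2: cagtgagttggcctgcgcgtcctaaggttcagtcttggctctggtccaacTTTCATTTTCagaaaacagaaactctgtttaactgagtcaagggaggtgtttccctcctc
Ifit1 and Ifit3 have 2 copies each in these bases and Rsad2 has 1, all in the reverse complement, TTTCNNTTTC. Rsad2, an antiviral enzyme, had 5.17 and 5.18 in HRAS then MYC against 8.0, 6.22, 7.5, 7.78 and 5.93 in HRAS (-1.91, adjusted p = 0.00274). Neither Rsad2 nor Ifit3 passed without HRAS then MYC replicate 2 or with the 7 arrays alone.

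Matrix genes moved in both directions. Of 31 mesenchymal and matrix genes 5 rose (16.1%, against 6.3% of all genes) and 3 fell (9.68%, against 6.21%), with a median of -0.24. Col6a3, a chain of collagen VI, had 9.26 and 7.90 in HRAS then MYC, against 5.73, 5.93, 5.88, 5.85 and 6.29 in HRAS (2.64 ± 0.25 log2 units, 6.24-fold, adjusted p = 1.01e-07). Col3a1, of fibrillar collagen, had 11.67 and 11.79 against 10.19, 8.03, 10.05, 9.38 and 10.35 (2.13 ± 0.456, 4.38-fold, adjusted p = 0.00227). In neither gene did the groups overlap, which for Col6a3 was a condition of its choice among the largest rises. Postn and Lum rose by 1.36 and 0.96 but stayed low (4.98 and 5.75 for Postn, 4.48 and 3.55 for Lum), and Col1a1 rose by 0.59. Lum and Col1a1 did not pass without HRAS then MYC replicate 1, nor Col3a1 without replicate 2, and none of these 3 with the 7 arrays alone. Tnc, tenascin C, a matrix protein of neural stem cell niches and gliomas, went the other way, with 7.23 and 5.99 against 11.84, 10.81, 11.33, 10.53 and 10.40 in HRAS (-4.37 ± 0.766, 0.0483 times the HRAS level, adjusted p = 0.000343). Fibronectin, Fn1, fell by 1.95 with overlapping arrays (10.03 and 8.44 against 9.53 to 12.10, adjusted p = 0.042), a call lost without HRAS replicate 1, 2 or 4 or HRAS then MYC replicate 2, with the 7 arrays alone, or after centring. The rises that passed were 3 without HRAS then MYC replicate 1 and 2 with the 7 arrays alone, and without replicate 2 the falls were 1.

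Of 18 neural stem and radial glia genes 3 fell and none rose (16.7% lower, against 6.21% of all genes, median -0.33). The transcription factor Pax6 had 6.57 and 5.60 in HRAS then MYC, against 8.64, 7.95, 8.27, 8.64 and 7.78 in HRAS (-2.17, adjusted p = 0.00319). Sox9, a factor of gliogenesis, had 8.51 and 7.78 against 9.97 to 10.79 (-2.12, adjusted p = 0.0205), and the filament nestin, Nes, 8.98 and 8.40 against 9.58 to 10.62 (-1.55, adjusted p = 0.00319). The groups were apart for all of them, but Pax6 and Nes did not pass without HRAS then MYC replicate 2, nor Sox9 without either replicate. Sox2 and Vim did not pass (-0.37 and -0.17). The astrocyte and neuronal lists had shares of falls near that of all genes. Of 16 astrocyte genes 1 fell (6.25%), the folate enzyme Aldh1l1 (5.43 and 4.80 against 6.64 to 7.97, -2.15, adjusted p = 5.29e-05), and of 16 oligodendrocyte genes none passed. Of 25 neuronal genes 2 fell (8%): Gap43, a growth cone protein (6.66 and 6.74 against 10.39 to 11.68, -4.50, adjusted p = 0.00654), and Stmn2, a microtubule regulator (4.77 and 4.32 against 6.11 to 9.99, -4.0, adjusted p = 0.0463). Gap43 lost its call without either HRAS then MYC array, and Stmn2 without either of these or any 1 of HRAS replicates 1 to 4 or HRAS+MYC replicates 2 to 7, or with the 7 arrays alone.

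Some regulators of cell state also passed. The pluripotency and differentiation factor Klf4 had 6.77 and 6.41 in HRAS then MYC, against 8.17, 9.47, 8.51, 9.96 and 9.26 in HRAS (-2.48, adjusted p = 1.54e-05). The chromatin protein Hmga2, known from embryonic tissue and tumours, had 9.21 and 8.59 against 9.96 to 11.12 (-1.71, adjusted p = 9.97e-06), and the DNA methyltransferase Dnmt3b rose by 0.85, a call lost without either HRAS then MYC array. These were the 1 rise and 2 falls among 16 oncofetal and pluripotency genes (6.25% and 12.5%, against 6.3% and 6.21% of all genes). A filter on low levels left no rise in this list. Of 35 Polycomb and SWI/SNF subunits 7 rose (20%, against 6.3% of all genes) and none fell. Their median was 0.19, against 0.04 for all genes. Dpf1, a subunit of the neuronal SWI/SNF complex, rose by 1.03 (7.86 and 8.25 against 6.81 to 7.28 in HRAS), Actl6a by 0.81, Pcgf1 by 0.83 and Cbx7 by 0.75, and 1 subunit passed without either HRAS then MYC array. Actl6a, Pcgf1 and Cbx7 were among those that did not, and Actl6a and Pcgf1 also lost the call without HRAS replicate 4, and Pcgf1 without HRAS replicate 1 or 2. With the 7 arrays alone 2 subunits passed, Actl6a and Pcgf1 not among them. The Polycomb subunits Bmi1 (0.49) and Ezh2 (0.35) did not pass. Of 24 Hox genes, which set position along the body axis, 2 rose (8.33%, near the 6.3% of all genes), Hoxd9 by 0.73 and Hoxc9 by 0.48. The mean level of the list was low, 5.14 to 5.47 in HRAS then MYC and 5.01 to 5.20 in HRAS. Hoxd9 did not pass without HRAS then MYC replicate 1, nor Hoxc9 without either array, and neither did with the 7 arrays alone. A filter on low levels left no Hox rise.

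The largest single rises and falls lay mostly outside these lists. Cytip, a regulator of cytohesins known from leukocytes, had 9.22 and 8.53 in HRAS then MYC, against 3.95, 3.91, 4.44, 4.15 and 3.89 in HRAS (4.81 ± 0.529 log2 units, 28-fold, adjusted p = 9.77e-07). All HRAS arrays were near the floor. Crispld1, a secreted protein, had 8.57 and 9.65 against 5.18 to 6.72 (3.52, adjusted p = 2.4e-09), and the insulin-like growth factor binding protein Igfbp4 12.04 and 11.87 against 5.7 to 10.37 (3.83, adjusted p = 0.00147). Bgn, the proteoglycan biglycan, had 10.81 and 8.03 against 4.56 to 7.46 (3.46, adjusted p = 0.00774), and did not pass without HRAS then MYC replicate 1. The hormone gene Fgf21 rose by 2.83, a call lost without HRAS then MYC replicate 2, the transcription factor Bnc1 by 2.81 and the ferric reductase Cybrd1 by 2.5. Apela, a ligand of the apelin receptor, had 7.99 and 8.63 against 3.83, 4.37, 5.45, 3.49 and 7.59 (3.36, adjusted p = 0.000203). HRAS replicate 5 was close to HRAS then MYC for Apela, as it was for the deubiquitinase gene Usp17ld (8.94, against 9.83 and 9.42 in HRAS then MYC), a member of a multigene family whose probes may not tell copies apart. Usp17ld (3.67) did not pass without HRAS replicate 4 or either HRAS then MYC array, and Camk1g (2.88) and Olfml3 (2.82) did not without either HRAS then MYC array. Cybrd1 lost its call without either of these or HRAS replicate 1 or 2. With the 7 arrays alone Igfbp4 (adjusted p = 0.0681), Apela (adjusted p = 0.0951), Bgn, Usp17ld, Camk1g and Olfml3 did not pass.

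Among the falls, Dkk2, a secreted modulator of WNT signalling, had 5.87 and 4.78 in HRAS then MYC, against 10.05, 10.96, 9.05, 9.95 and 10.57 in HRAS (-4.79 ± 0.359 log2 units, 0.0361 times the HRAS level, adjusted p = 2.08e-09). Pi15, a secreted peptidase inhibitor, fell by 4.70 and the adhesion molecule Ceacam1 by 4.57. Cdh13, a cadherin without a cytoplasmic domain, had 6.94 and 6.78 against 10.02 to 11.87 (-4.16, adjusted p = 9.19e-07), and Fxyd5, a regulator of the sodium pump, 5.15 and 5.51 against 8.30 to 10.40 (-4.21, adjusted p = 2.57e-07). The monoamine oxidase Maob fell by 4.04 and the cholesterol exporter Abca1 by 4.0. All of these were picked among genes whose groups did not overlap, so the lack of overlap is not a separate result. Each passed under every alternative that tested it. Receptors were also among the falls: the HGF receptor Met (7.54 and 5.99 against 10 to 11.26, -3.93), the chemokine receptor Cxcr4 (7.41 and 7.84 against 10.66 to 12.26, -3.87) and the growth hormone receptor Ghr (6.68 and 6.38 against 9.88 to 11.05, -3.98), all 3 chosen after their values were seen. Met did not pass without HRAS then MYC replicate 2.

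Markers of other cells that a sorted tumour sample could hold were mostly near the floor. The leukocyte antigen Ptprc lay between 4.27 and 4.85 on all 7 arrays, the microglial genes Itgam and Aif1 between 3.91 and 4.42, and the choroid plexus gene Ttr between 3.52 and 4.09. The summed level of the 15 microglia and macrophage genes was 75.5 to 76.1 in HRAS then MYC and 71.9 to 78.5 in HRAS. Of these genes 1 fell and 1 rose (6.67% each, near the 6.21% and 6.3% of all genes). Cd68, a lysosomal protein, fell (6.70 and 6.11 against 6.86 to 11.21), and Tmem119 rose (6.63 and 6.81 against 5.06 to 6.35). The summed level of the 14 endothelial and pericyte genes was 72.2 to 74.3 in HRAS then MYC and 70.9 to 75.1 in HRAS. Pdgfrb, a receptor of pericytes and fibroblasts, had 7.71 and 6.63 against 5.07 to 6.69 (1.57, adjusted p = 0.00174) beside the collagen rises above, and Cdh5 rose by 0.93, while Flt1 and Rgs5 fell by 1.83 and 0.87. Cd68, Flt1 and Rgs5 lost their call without either HRAS then MYC array, Pdgfrb without replicate 1 and Tmem119 without replicate 2, and Rgs5 also without HRAS replicate 1, 2 or 5 or any 1 HRAS+MYC array or after centring. The summed level of the 14 ependymal and choroid plexus genes was 67.6 to 69.4 in HRAS then MYC and 66.4 to 70.8 in HRAS. Of these the water channel Aqp1 fell by 2.01 and the cilium gene Tekt1 rose by 0.51, Aqp1 not without HRAS then MYC replicate 2 and Tekt1 not without replicate 1. With the 7 arrays alone Cd68, Tmem119, Pdgfrb, Flt1, Rgs5, Aqp1 and Tekt1 did not pass. Replicate 1, the higher of the HRAS then MYC arrays for Pdgfrb, was also the higher for Col6a3, Bgn and Lum. The reverse held for Col3a1 and Postn, which were higher in replicate 2. The part of such cells in these results was not tested. Of 4 erythroid and fibroblast-like host genes and 4 genes linked to the X and Y chromosomes none passed.

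Cells that received MYC after HRAS differed from cells that received both at the start about as widely as from HRAS. Against HRAS+MYC 2405 of 19938 genes passed (12.1%), 1374 higher (6.89%) and 1031 lower (5.17%). The counts were 596 and 469 without HRAS then MYC replicate 1, and 302 and 303 without replicate 2. This comparison and the one with HRAS share the HRAS then MYC arrays. The ribosome list had 2 members higher and none lower of 30 (median -0.15), the synthesis list none higher and 1 lower of 22 (Odc1, -0.86, lost without either HRAS then MYC array), and the cell cycle list 2 higher and none lower of 33 (median 0.22). In the interferon list 2 of 22 were higher and none lower, and Myc, Pvt1, Dkk2 and Tnc had differences of 0.21, -0.06, 0.24 and 0.34, none of which passed.

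Of 22 smooth muscle and simple epithelium genes 8 were lower in HRAS then MYC than in HRAS+MYC and none higher, against 5.17% of all genes lower. Krt19, a keratin of simple epithelia, had 5.10 and 5.09 in HRAS then MYC, and in HRAS+MYC a lowest value of 10.27, a median of 11.87 and a highest of 12.93. The groups were more than 5 log2 units apart (-6.82 ± 0.376, adjusted p = 7.78e-13). Its partners Krt8 and Krt18 were lower by a difference of -4.84 and -4.51, and the junction genes Cdh1, Dsp and Epcam by -2.25, -3.54 and -3.38, of which Krt18 did not pass without HRAS then MYC replicate 2. The HRAS then MYC arrays stood near HRAS for Krt19 and Krt8 (5.36 to 6.30 and 6.06 to 7.62 in HRAS). For Krt18 the HRAS arrays spread widely, from 6.09 to 11.4, and HRAS then MYC (6.25 to 7.8) lay within that range. The highest HRAS array for Krt18 was above the lowest HRAS+MYC array (11.04), so HRAS and HRAS+MYC overlapped for this gene. The receptor gene Il5ra was arranged like Krt19 and Krt8, with 3.80 and 3.70 in HRAS then MYC, 10 to 10.82 in HRAS+MYC and 3.48 to 3.75 in HRAS. MYC then HRAS cultures, the other consecutive order, had levels like those of HRAS+MYC for several of these genes, with 12.03 and 12.26 for Krt8, 11.81 and 11.98 for Krt18, 9.88 and 10.94 for Krt19, and 10.70 and 10.93 for Il5ra. The levels of these 4 genes thus did not separate consecutive from simultaneous addition. For Cdh1, MYC then HRAS had 5.72 to 6.56, below the 6.86 to 8.66 of HRAS+MYC. Dsp (7.53 to 8.03, against 7.99 to 10.01) and Epcam (7.72 to 8.4, against 7.83 to 9.98) overlapped with HRAS+MYC at its low end. Against HRAS itself 3 genes of the list fell (13.6%, against 6.21% of all genes). They were the actin-binding Tpm1 (-1.74) and Cnn2 (-1.56) and the junction gene Pkp1 (-1.64). None of them passed without HRAS then MYC replicate 2, nor Pkp1 and Cnn2 without replicate 1 or with the 7 arrays alone. Cnn2 also lost its call without HRAS replicate 1, 3 or 4.

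Other genes also placed HRAS then MYC with HRAS or apart from both. Gpm6b, a neural membrane protein, had 10.49 and 10.30 in HRAS then MYC, 5.54 to 7.46 in HRAS+MYC and 10.93 to 11.41 in HRAS. Lama4, a laminin chain, had 8.32 and 7.77 in HRAS then MYC, 4.04 to 4.62 in HRAS+MYC and 8.69 to 10.74 in HRAS, and passed in both comparisons with opposite sign (3.72 against HRAS+MYC, -1.82 against HRAS, the second lost without HRAS then MYC replicate 2 or with the 7 arrays alone). MYC then HRAS arrays had 4.44 and 5.39 for Lama4 and 7.80 and 9.05 for Gpm6b. The integrin Itga4 (10.19 and 10.28) was higher by 4.81 than in HRAS+MYC (5.29 to 5.67) and overlapped in no array with HRAS (6.72 to 9.26), from which its difference of 2.07 did not pass (adjusted p = 0.0761). Trp53i11, named for its induction by p53, had 11.99 and 12.50 in HRAS then MYC against 5.85 to 6.68 in HRAS+MYC (5.95, adjusted p = 8.21e-06) and 8.27 to 12.50 in HRAS. Cytip and Crispld1 were higher in HRAS then MYC than in HRAS+MYC by 4.40 and 4.20. For Cytip the MYC then HRAS arrays had 6.05 and 7.11 and those of HRAS with Bmi1 4.12 and 8.10, so its level above the floor was not particular to HRAS then MYC, while Crispld1 had 4.85 and 4.95 in MYC then HRAS. Slc9a2, a sodium-proton exchanger, was lower in HRAS then MYC than in both, with 6.67 and 6.26 against 10.75 to 11.45 in HRAS+MYC (-4.59) and 9.25 to 10.78 in HRAS (-3.70, adjusted p = 8.43e-10). It had 10.94 and 11.71 in MYC then HRAS and 4.59 to 5.04 in 6 arrays of MYC alone.

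**Figure D5:**
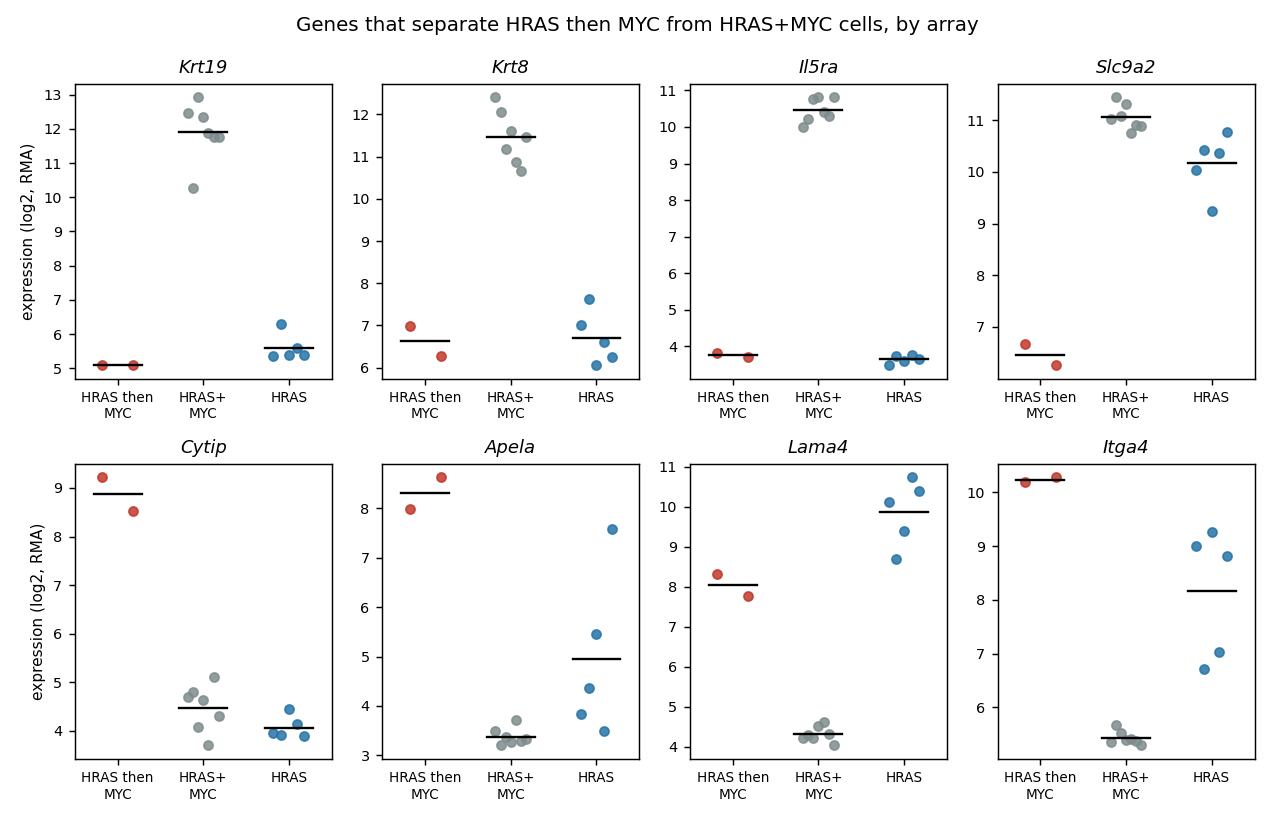
Log2 expression (RMA) by array of 8 genes that separate HRAS then MYC (2 arrays) from HRAS+MYC (7), with HRAS (5) beside them and the group mean as a line; axes do not start at 0. Of the 3 groups plotted, Krt19, Krt8 and Il5ra are high in HRAS+MYC, Slc9a2 is lowest and Cytip highest in HRAS then MYC, and Lama4 is lowest in HRAS+MYC; levels in MYC then HRAS, which resemble HRAS+MYC for the first 3 genes, are not plotted.

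Matrix and signalling lists also held genes that passed, against 6.89% of all genes higher and 5.17% lower. The shares higher and lower were 32.3% and 3.23% for matrix, 3.57% and 28.6% for TGF-beta and BMP, and 4.35% and 34.8% for MAP kinase output. They were 27.8% and 5.56% for CDK inhibitors and p53 targets, and 25.7% and 2.86% for Polycomb and SWI/SNF subunits. The smaller share of each list was near or below that of all genes. Of 31 matrix genes 10 were higher and 1 lower in HRAS then MYC than in HRAS+MYC (median 0.37), with Col3a1 at 11.67 and 11.79 against 6.94 to 8.13 (4.17, adjusted p = 1.86e-07) and Fn1 at 10.03 and 8.44 against 5.45 to 7.00 (2.9, adjusted p = 0.00165). Of 28 TGF-beta and BMP genes 1 was higher and 8 lower, among them Grem1 (-3.28), Bmp2 (-2.85) and Tgfb1 (7.70 and 6.37 against 8.46 to 10.38, -2.82). Of 23 MAP kinase output genes 1 was higher, Spry1 (2.38), and 8 were lower, led by Ereg (7.31 and 5.72 against 9.99 to 11.34, -4.31, adjusted p = 1.34e-10) and Hbegf (-2.35). Of 18 CDK inhibitors and p53 targets 5 were higher and 1 lower. Differences over the list ran from -4.24 to 2.5, so the largest was negative. Among the higher genes they were 2.5 for Cdkn2c, 1.14 for Cdkn1b and 0.86 for Cdkn2a. Of 35 Polycomb and SWI/SNF subunits 9 were higher and 1 lower, and these included Smarcb1, the subunit lost in human rhabdoid tumours, with 10.42 and 10.78 in HRAS then MYC against 9.79 to 10.08 in HRAS+MYC (0.69, adjusted p = 0.00128). Without HRAS then MYC replicate 1, Fn1 and Cdkn2a did not pass in this comparison, and without replicate 2 Cdkn2a, Cdkn1b and Smarcb1 did not.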

How the data were processed

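Each neurosphere culture gave total RNA for 1 Affymetrix Mouse Gene 1.0 ST array. The deposited log2 values were summarised by the authors with RMA; the submitters' processing notes name version 1.0 of Affymetrix Expression Console. RMA aligns the probe distributions of the arrays, which limits what an overall shift of RNA could show, and low values are drawn to a floor. Array medians over genes still ran from 6.1 to 6.41. Arrays give no depth, so their number limits the precision. Of 35557 probe sets, the 21789 with 1 gene symbol gave 19938 genes, each by its probe set of highest mean over all arrays.

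Group means were fitted with limma 3.58.1 (R 4.3.3) to all 32 arrays in 8 groups, so that groups of 2 arrays borrow the common spread. HRAS then MYC was contrasted with HRAS and with HRAS+MYC, and p-values from eBayes were adjusted by Benjamini-Hochberg over all genes of a comparison. In simulated data 200 of 19938 genes were changed between HRAS then MYC and HRAS. Of changes of 0.5, 1 and 2 log2 units 4%, 63.5% and 94.5% passed, with 5.5% or fewer unchanged genes among the calls. The simulation gave all arrays of a gene the same independent normal spread and no other group differences. The real arrays were unequal, with array weights from 0.323 to 2.21, so these rates may not hold for them.

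The members, the 24 lists and the rule for named genes were chosen with earlier results of these data known. The rule named the MYC network, the 12 largest rises and falls that passed without overlap (6 each against HRAS+MYC), and up to 4 members per list. Further list members, and Phgdh, Psat1, Slc9a2, Ghr, Met, Cxcr4, Ccl5, Lama4 and Gpm6b, were named after their values were seen. Alternatives covered the arrays fitted, an intensity trend, array weights, averaged probe sets, a filter on low levels, median centring, the replicate number as a block, and each array left out.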

Additional observations from a re-analysis of the deposited data

Results flagged for a closer look

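Among 110 gene groups of 5 or 7 arrays, 7 held 1 array far from the others (a gap above Dixon's critical value). Chance flags about 1 in 20 such groups, so this number is near the one chance gives. HRAS replicate 3 was high for Mycn (7.22, against 5.77 to 5.94 on the other HRAS arrays) and for Mcm5 (9.54, against 8.32 to 8.61), and low for Mlxipl (4.98, against 5.40 to 5.55). HRAS replicate 4 was high for Crispld1 (6.72, against 5.18 to 5.54), replicate 2 for Krt19 (6.30, against 5.36 to 5.58) and replicate 5 for Tmem119 (6.35, against 5.06 to 5.38). Prxl2a, which fell against both groups, was low in HRAS+MYC replicate 2 (10.03, against 11.80 to 12.51 on the other HRAS+MYC arrays).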

How the results depend on the processing

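No named gene that passed turned its direction. Of named genes that did not pass against HRAS, centring gave 0.11 for Mycn (-0.04 without it), 0.00 for Mycl and 0.01 for Mxi1 (both -0.14), and Mycn was 0.10 with array weights. Against HRAS, 342 genes were higher and 641 lower with the 7 arrays alone, 2357 and 2027 with array weights, and 2467 higher after median centring. Against HRAS+MYC, array weights gave 2808 higher and 2277 lower genes. Leaving out 1 array gave 228 to 1382 higher and 316 to 1285 lower genes against HRAS, and 302 to 1392 and 303 to 1093 against HRAS+MYC, with the lowest counts without HRAS then MYC replicate 2. Whether replicate numbers pair the arrays is not known. Deviations of same-numbered arrays from their group means correlated at 0.05 and 0.04. With 2 HRAS then MYC arrays these deviations mirror each other, so the values are not separate checks and cannot decide it. The replicate block gave 1081 higher and 1052 lower genes against HRAS, and 1199 and 927 against HRAS+MYC. With it the interferon list had 6 falls, against 10. Without HRAS replicates 1 and 2, chosen after the data were seen for their high Pvt1, 1208 were higher and 1155 lower, and without MYC replicates 4 and 5, also chosen afterwards, 1501 and 1454. Of 79 genes named for passing against HRAS, 28 passed under all alternatives, 51 lost their call under at least 1 and 44 without a single array. Of 11 named genes that did not pass against HRAS, 2 passed under at least 1 alternative, Mlxipl and Mga. Of 768 list counts under alternatives, 146 moved by over 1.5 times. With 2 HRAS then MYC arrays, leaving out 1 assumes that the other varies like the remaining groups.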

Other observations

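For genes with a mean level above 6.5, a median log2 difference was computed per chromosome and array. The HRAS then MYC arrays were set against the mean of all HRAS arrays, each HRAS array against the mean of the other HRAS arrays. Narrow margins between the groups may rest on this unlike reference. Both HRAS then MYC arrays lay above all HRAS arrays on chromosomes 10, 12, 17 and X. On chromosome 10 (487 genes) the medians were 0.12 and 0.276 in HRAS then MYC, against -0.1 to 0.098 in HRAS, and 19.1% of these genes were higher and 8.42% lower, against 11% and 9.51% of the 9649 genes above that level. Chromosomes 16, 3 and 8 followed with 16%, 15.5% and 15% higher. On chromosomes 12, 17 and X the lower of the HRAS then MYC medians was 0.075, 0.074 and 0.081, against highest HRAS medians of 0.046, 0.069 and 0.073. Chromosome 15, which carries Myc, had 0.035 and 0.076 in HRAS then MYC, within the range of -0.163 to 0.166 in HRAS.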
